A study of Mus musculus with 2 samples.

Results

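Dorsal-type class II mature neurons of the mouse olfactory epithelium were taken from 2 single-cell RNA-seq libraries (10x Genomics kits that read the 3′ ends of transcripts and count each molecule once by its unique molecular identifier, UMI). A cell was kept with at least 5000 UMIs, 500 or more genes and a mitochondrial share of at most 10%. It counted as mature where Omp and Stoml3 each gave at least 0.15% of its UMIs and where Gap43 (under 0.05%), the haemoglobin genes Hbb-bs and Hba-a1 (under 1% together) and Cyp2g1 (under 0.1%) were low. Its leading odorant receptor was the Olfr gene with most UMIs, at least 3 and more than the transgene, with an Olfr number outside the block taken as class I. It was dorsal-type where Nqo1 and Acsm4 together had at least 2 UMIs and more than Ncam2 and Nfix together. Of 2954 cells in all, 245 met the rule: 129 of 1816 in the OR1A1 transgenic library and 116 of 1138 in the wild-type library. The cells were selected on measured UMIs of these genes, so those values are given as a description.

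The transgenic library came from a 9-week-old female of the line Tg(Or8a1-OR1A1,-MAPT/mCherry)D736Feins/J with the transgene on 1 allele (genotype Tg(Or8a1-OR1A1,-MAPT/mCherry)D736Feins/+). The wild-type library came from an 8-week-old female from a cross labelled as 10G4-V2.2-#7/Jax with Bl6/129SF1/J; its genotype label is WT, and whether it carries anything of the 10G4 line is not stated in the sources used here. A feature named 10G4 was counted in both libraries, with a UMI in 9.30% of transgenic (12 of 129, 4.90 to 15.7%) and 7.76% of wild-type dorsal-type cells (9 of 116, 3.61 to 14.2%) and never more than 2 UMIs in one of them. OR1A1 is a human odorant receptor, and by mouse nomenclature the gene at the head of the construct's name, Or8a1, is the place of the promoter; the transgenic animal stands for 1 line. Each group is 1 library of dissociated tissue, so genotype, strain, age and library cannot be told apart. No difference can be set against a spread between animals, and no test was made. Intervals are exact 95% intervals for counting error alone, and cells of a library are not replicates.

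Each mature olfactory sensory neuron expresses mainly 1 odorant receptor gene, and the receptor genes a neuron can choose from depend on where in the epithelium it lies. Neurons of the dorsal zone express the quinone reductase Nqo1 and the medium-chain acyl-CoA synthetase Acsm4, whereas neurons outside it express the adhesion molecule Ncam2 (OCAM) and higher levels of nuclear factor I proteins such as Nfix. Class I receptors, an older branch of the family that resembles fish receptors, lie mostly in the dorsal zone, which they share with a part of the class II receptors. Axons of the zone reach the dorsal olfactory bulb, and their guidance involves receptors such as Robo2, while Nrp2 acts in ventral axons. OMP and Stoml3 are proteins of mature olfactory neurons.

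The sequences upstream of the genes that define the zone and of the receptors leading most of its cells show what lies before each start. The 250 bases before the start (RefSeq, GRCm38.p6) are given 5′ to 3′ on the gene's strand, for Nqo1 at chr8:107403206-107403455 (minus strand), Acsm4 at chr7:119689776-119690025 (plus strand), Olfr77 at chr9:19916979-19917228 (plus strand), Olfr1030 at chr2:85979062-85979311 (plus strand), Olfr959 at chr9:39573258-39573507 (minus strand) and Olfr969 at chr9:39795127-39795376 (plus strand). Capitals mark matches on either strand to an Ebf-type motif (TCCCNNGGG), a homeodomain motif (TAATTA), an antioxidant response motif (TGACNNNGC) or an NFI-type motif (TTGGCA), chosen with the sequences in view. The Ebf-type letters before Acsm4 match on both strands at the same place, and no other marked matches overlap.
Nqo1: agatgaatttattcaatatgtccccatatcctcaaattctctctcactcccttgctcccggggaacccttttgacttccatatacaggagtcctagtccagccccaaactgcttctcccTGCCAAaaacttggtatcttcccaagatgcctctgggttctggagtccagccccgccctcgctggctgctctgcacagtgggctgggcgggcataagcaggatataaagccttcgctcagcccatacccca
Acsm4: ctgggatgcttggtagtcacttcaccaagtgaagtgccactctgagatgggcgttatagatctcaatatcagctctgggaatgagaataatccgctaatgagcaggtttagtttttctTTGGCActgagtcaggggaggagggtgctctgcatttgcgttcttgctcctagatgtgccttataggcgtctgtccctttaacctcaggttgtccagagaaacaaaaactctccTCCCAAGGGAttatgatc
Olfr77: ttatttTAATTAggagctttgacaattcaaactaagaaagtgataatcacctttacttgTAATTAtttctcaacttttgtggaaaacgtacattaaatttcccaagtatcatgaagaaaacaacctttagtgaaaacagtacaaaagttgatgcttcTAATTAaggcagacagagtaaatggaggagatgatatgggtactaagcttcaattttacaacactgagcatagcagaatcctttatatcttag
Olfr1030: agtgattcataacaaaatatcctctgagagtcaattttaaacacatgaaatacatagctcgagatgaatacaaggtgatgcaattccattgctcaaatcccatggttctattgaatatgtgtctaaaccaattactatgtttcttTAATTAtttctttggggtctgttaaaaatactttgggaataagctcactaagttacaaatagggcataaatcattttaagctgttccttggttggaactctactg
Olfr959: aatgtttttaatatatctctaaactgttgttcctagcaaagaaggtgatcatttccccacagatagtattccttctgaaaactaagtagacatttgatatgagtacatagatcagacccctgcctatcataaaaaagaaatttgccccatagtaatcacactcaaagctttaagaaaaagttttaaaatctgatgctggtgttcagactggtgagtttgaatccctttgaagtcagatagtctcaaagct
Olfr969: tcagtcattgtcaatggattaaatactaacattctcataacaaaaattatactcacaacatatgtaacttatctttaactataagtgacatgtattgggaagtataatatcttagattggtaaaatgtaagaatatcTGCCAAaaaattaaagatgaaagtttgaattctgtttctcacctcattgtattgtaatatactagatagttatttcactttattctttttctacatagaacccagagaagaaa
The Nqo1 stretch held 1 NFI-type match and none of the other motifs. The Acsm4 stretch held the Ebf-type letters at 1 place and 1 NFI-type match. Olfr77 had 3 homeodomain matches and Olfr1030 had 1, whereas Olfr969 had 1 NFI-type match and Olfr959 none of the motifs. Over all 32851 RefSeq promoters of this length the NFI-type letters were in 12.3%, the homeodomain letters in 4.84%, the Ebf-type letters in 5.60% and the antioxidant letters in 10.2%. Among 119 receptors that led dorsal-type cells and had an entry (of 138), 17.6% held the homeodomain letters, against 18.1% of 249 entries for receptors that led ventral-type cells only. The same shares were 11.8% and 10.4% for the NFI-type, 6.72% and 4.42% for the antioxidant and 1.68% and 2.41% for the Ebf-type letters. A match is a run of letters, and binding was not measured.

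Among mature neurons led by a class II receptor, dorsal-type cells were 29.0% in the transgenic library (129 of 445, 24.8 to 33.4%) and 30.5% in the wild-type library (116 of 380, 25.9 to 35.4%). The intervals overlap widely. Ventral-type cells, by the mirrored rule, were 308 and 261, and 8 and 3 cells met neither rule. Of all mature cells the dorsal-type took 19.3% in the transgenic library (of 670, 16.3 to 22.4%), against 25.3% in the wild type (of 458, 21.4 to 29.6%). The transgenic denominator includes 147 cells in which the transgene out-counted every receptor, and the wild-type denominator none. Of those 147 cells 63.3% (54.9 to 71.1%) carried the dorsal pair of genes. Cells led by a class I receptor had the dorsal pair in 39 of 41 transgenic and 47 of 48 wild-type cells.

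The zone genes split the class II neurons into groups with few cells between. Nqo1 and Acsm4 together had a median of 19 UMIs in transgenic and 20 in wild-type dorsal-type cells, with ranges of 3 to 56 and 3 to 47. Ncam2 and Nfix together were at 0 in 73.6% of transgenic and 81.0% of wild-type dorsal-type cells. In ventral-type cells the dorsal pair was at 0 in 275 of 308 transgenic and 240 of 261 wild-type cells. Just inside the threshold lay a transgenic cell led by Olfr1024 with 3 UMIs of the dorsal pair and 2 of the ventral pair, and a wild-type cell led by Olfr1513 with 13 and 10. Just outside lay a transgenic cell led by Olfr1056 with 4 and 4, and a wild-type cell led by Olfr32 with 4 and 5.

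**Figure D1:**
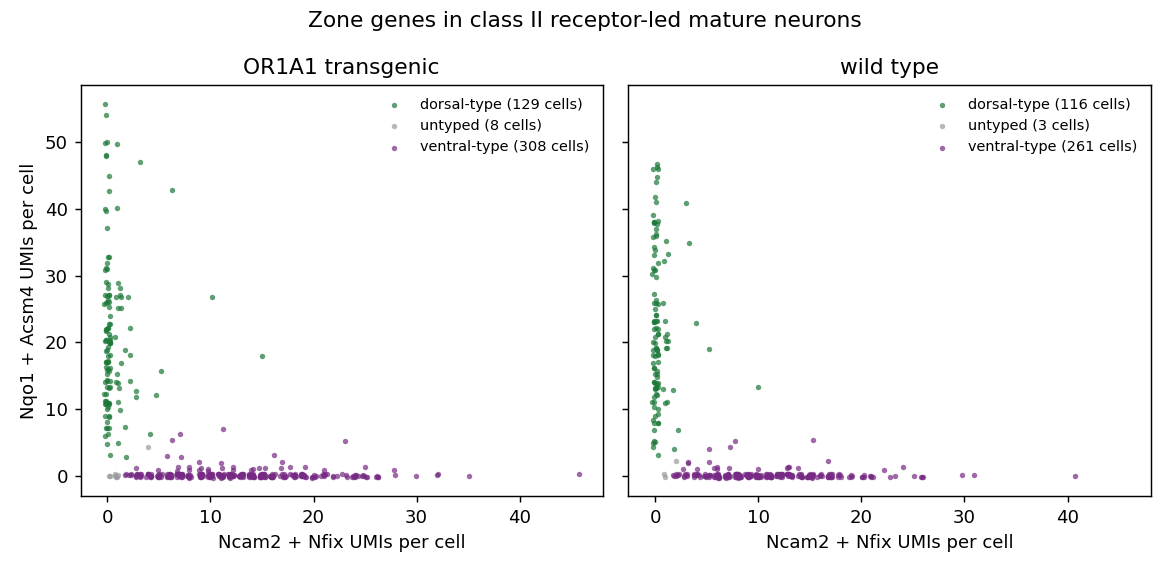
UMIs of Nqo1 plus Acsm4 (vertical axis) against Ncam2 plus Nfix (horizontal axis) in each class II receptor-led mature neuron of the OR1A1 transgenic (left) and wild-type library (right), with points shifted slightly to show overlaps. The 129 and 116 dorsal-type cells lie along the vertical axis and the 308 and 261 ventral-type cells along the horizontal one.

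The cells carried the genes of mature olfactory neurons. Omp was at 4858 CPM (UMIs of the gene summed over the cells, per 1000000 UMIs of these cells) in transgenic and 4894 CPM in wild-type dorsal-type cells, close to the 5111 and 5125 CPM of ventral-type cells. The 8 mature neuron markers summed to 25611 and 25203 CPM, and all 8 were present. Among markers of other cells Top2a, Trp63, Krt15, Lum, Sox10, Trpc2, Cd3e and Cd3d had no UMI in either library's dorsal-type cells, and 8 lists (progenitors, horizontal basal cells, fibroblasts, endothelium, macrophages, T or NK cells, ensheathing glia, vomeronasal or other sensory neurons) summed to between 0 and 22.8 CPM. The erythroid list summed to 190 and 129 CPM (free RNA 12534 and 9209), the sustentacular list to 51.8 and 34.2 CPM and the septal or respiratory list to 111 and 119 CPM. Of that list Foxj1, a ciliogenesis factor, was at 73.5 and 76.5 CPM in dorsal-type cells and 83.8 and 62.2 CPM in ventral-type cells, against 15.9 and 9.10 CPM in free RNA (barcodes under 100 UMIs). The immature neuron list summed to 1057 and 902 CPM, and the neutrophil list to 5.01 and 95.9 CPM, where free RNA held 684 and 9136 CPM. Dorsal-type cells had medians of 13839 and 11126 UMIs, and the libraries shared 1 barcode among cells and 0 among dorsal-type cells.

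The receptors leading these cells were many and mostly rare. In all 138 receptors led a dorsal-type cell, 92 of them in the transgenic library and 72 in the wild-type one. The 26 found in both were 28.3% of the transgenic and 36.1% of the wild-type set. Of the 138, 91 led a single cell and none led more than 7. Olfr77 led 1 transgenic and 6 wild-type cells, Olfr1030 led 4 and 2, Olfr1361 led 5 and 1, Olfr959 led 2 and 4, and Olfr969 led 1 and 5. Next came Olfr1042, Olfr1513, Olfr19, Olfr411, Olfr446 and Olfr68 with 5 cells each. Counts this small give no order between neighbours. The leading receptor had a median of 97 UMIs in transgenic cells (3 to 686) and 107.5 in wild-type cells (5 to 613). Receptors differed in level: the 6 cells led by Olfr959 held 502 to 655 UMIs of it, and the 6 led by Olfr1361 held 4 to 74.

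A receptor's cells were mostly of 1 zone type, a measure the rule did not fix, since it read the receptor's identity and the zone genes separately. Of 193 class II receptors with at least 2 typed cells, 44 had only dorsal-type cells, 135 only ventral-type cells and 14 had some of each, so that 92.7% had 1 type. Dorsal-type cells were 29.0% and 30.5% of class II-led cells, so receptors with few cells can be of 1 type whatever their identity. The share that this mix alone would give was not computed. The same held between the libraries. Of 96 receptors found in both libraries 24 had only dorsal-type cells in each, 69 only ventral-type cells in each, and 3 did otherwise. These 3 were Olfr48, with 1 dorsal-type transgenic and 1 ventral-type wild-type cell, Olfr1361 and Olfr543. The dorsal-type Olfr48 cell was the deepest of the transgenic dorsal-type cells (37295 UMIs) and held 146 UMIs of Olfr33 beside 686 of Olfr48. Whether this barcode holds 2 cells was not tested. Among mixed receptors Olfr1361 had 6 dorsal-type and 2 ventral-type cells and Olfr1271 had 1 and 5. The dorsal-type Olfr1271 cell was led by only 6 UMIs, beside 3 of Olfr134.

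Receptor families also parted by zone type, with exceptions. Family numbers (MOR, from the gene synonyms of RefSeq) were available for 236 of the 245 cells, and 69 families led a dorsal-type cell. Of 52 families with 5 or more typed cells, 8 had dorsal-type cells only, 24 ventral-type cells only and 20 both. The all-dorsal families were 224 (11 cells), 185 (10), 22 and 223 (9 each), 143 (7), 108 (6), 140 and 179 (5 each). Family 171 had 14 dorsal-type and 3 ventral-type cells and family 261 had 12 and 2, whereas family 256 had 12 and 34 and family 103 had 1 and 40. By family number 14 of the 245 cells (4 transgenic, 10 wild type) were led by receptors of class I families, although their symbols fall outside the class I numbers: Olfr68 (5 cells), Olfr69 and Olfr543 (3 each), Olfr243, Olfr33 and Olfr67 (1 each). Leaving these cells out kept each count of genes below within 1.5 times its value.

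**Figure D2:**
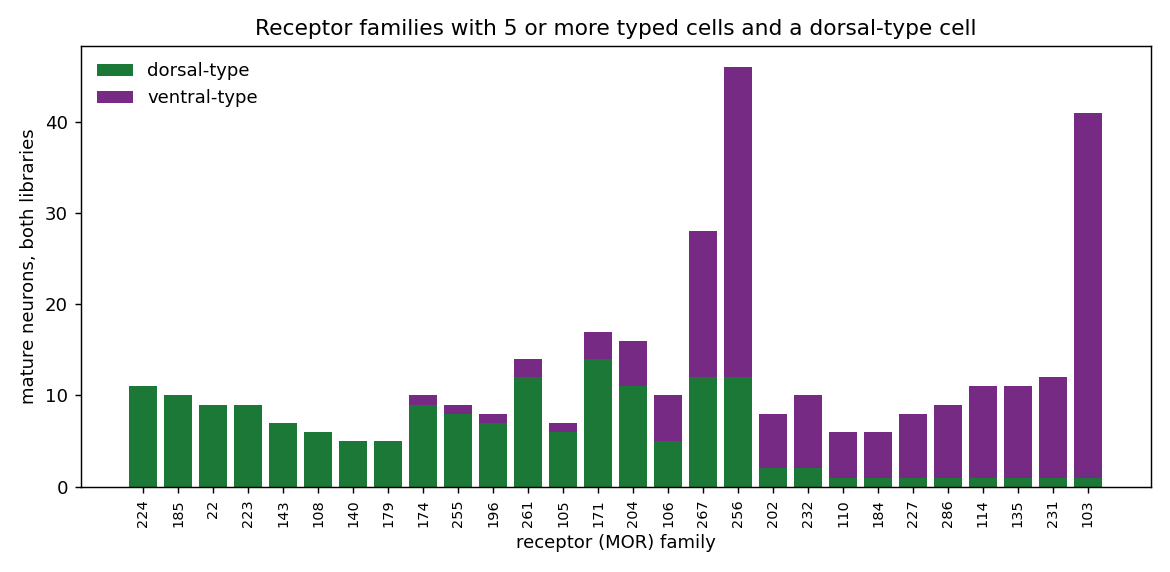
Number of mature neurons of both libraries (vertical axis) by receptor family number (horizontal axis), for families with 5 or more typed cells and at least 1 dorsal-type cell; green bars are dorsal-type cells and violet bars, stacked on them, ventral-type cells. Family 22 is a class I family, and family 256 has 12 dorsal-type and 34 ventral-type cells.

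Most dorsal-type cells held a single receptor. At 3 or more UMIs exactly 1 receptor was found in 89.1% of transgenic cells (115 of 129, 82.5 to 93.9%) and in 93.1% of wild-type ones (108 of 116, 86.9 to 97.0%). In ventral-type cells the shares were 93.5% (90.1 to 96.0%) and 96.6% (93.6 to 98.4%). The leading receptor gave a median of 99.0% and 99.5% of a dorsal-type cell's receptor UMIs. Of the cells with a second receptor, 10 of 14 transgenic and 4 of 8 wild-type cells had a neighbour within 200 kb as the second. Olfr1043 came with Olfr1042 in 2 cells of each library, at up to 41 UMIs of Olfr1042 beside 46 of Olfr1043. All 3 transgenic cells led by Olfr1513 also held Olfr1512, at 5 or 6 UMIs beside 91 to 131. Near-identical receptors can share reads, so such pairs are uncertain. Transgenic pairs that were not neighbours included Olfr48 with Olfr33 (686 and 146 UMIs) and Olfr175 with Olfr418 (139 and 17). They lay in deep barcodes of 37295 and 26491 UMIs, and no doublet caller was used.

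The transgene feature was found beside the endogenous receptor in part of the transgenic cells. At least 1 UMI was found in 35.7% of transgenic dorsal-type cells (46 of 129, 27.4 to 44.6%) and in 0 of 116 wild-type cells, which allows a share of up to 2.59% if 3 cells are taken as the limit of a count of 0 (exact upper bound 3.13%). At 3 or more UMIs the transgenic share was 14.7% (9.11 to 22.04%), against 5.19% (2.998 to 8.30%) of transgenic ventral-type cells. At 1 UMI the ventral-type share was 30.2% (25.1 to 35.7%). The cells' median depths were 13839 and 14959 UMIs. After thinning every cell to 5000 UMIs, which left out none, 23.3% of dorsal-type (16.3 to 31.5%) and 14.6% of ventral-type cells (10.9 to 19.1%) held 1 or more. In 109 transgenic cells gated by fibroblast collagen genes (median 11636 UMIs), which should lack a receptor transgene, the share at 1 UMI was 3.67% (1.01 to 9.13%) and no cell held more than 1 UMI. The rule kept only cells in which the transgene had fewer UMIs than the leading receptor.

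Nqo1 and Acsm4, the genes that define the type, did not keep a fixed ratio. Their values chose the cells. Nqo1 summed to 942 CPM in transgenic and 1382 in wild-type dorsal-type cells, and Acsm4 to 573 and 513 CPM. Per cell, Nqo1 had a median of 894 CPM (0 to 3481) in transgenic and 1465 CPM (0 to 3938) in wild-type cells. Acsm4 had medians of 603 CPM (73.2 to 1233) and 477 CPM (0 to 1301). Nqo1 was at 0 UMIs in 14 transgenic and 4 wild-type cells, and Acsm4 in 0 and 3. Acsm4 out-counted Nqo1 in 31.8% of transgenic (41 of 129, 23.9 to 40.6%) and in 16.4% of wild-type ones (19 of 116, 10.2 to 24.4%), while the libraries' cells were led by mostly different receptors.

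Nqo1 varied between the receptors. Among receptors leading 3 or more dorsal-type cells the median Nqo1 level was 41.7 CPM for Olfr368, 96.2 CPM for Olfr813, 176 CPM for Olfr1513 and 209 CPM for Olfr420. At the other end were Olfr1176 at 3103 CPM, Olfr1406 at 2158 CPM and Olfr69 at 2131 CPM. The cells of Olfr368 and Olfr420 were all transgenic and those of Olfr813, Olfr1406 and Olfr69 all wild type, so for these receptor and library cannot be told apart. All 4 cells led by Olfr1406 lay above all 5 cells led by Olfr1513, whose highest cell had 633 CPM. The Olfr368 median was the value of a cell rich in Tex15 (described below), with 1 Nqo1 UMI. Both wild-type cells led by Olfr1513 were also rich in Tex15, with 3 and 4 Nqo1 UMIs. The other cells were at 0 and 78.3 CPM for Olfr368 and at 0, 139 and 633 CPM for Olfr1513. Within some receptors the cells spread widely, as for Olfr969 (82.99 to 3530 CPM). In the 26 receptors found in both libraries the mean Nqo1 level was higher in the transgenic cells for 13 and lower for 13, with medians of 1348 and 1452 CPM.

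**Figure D3:**
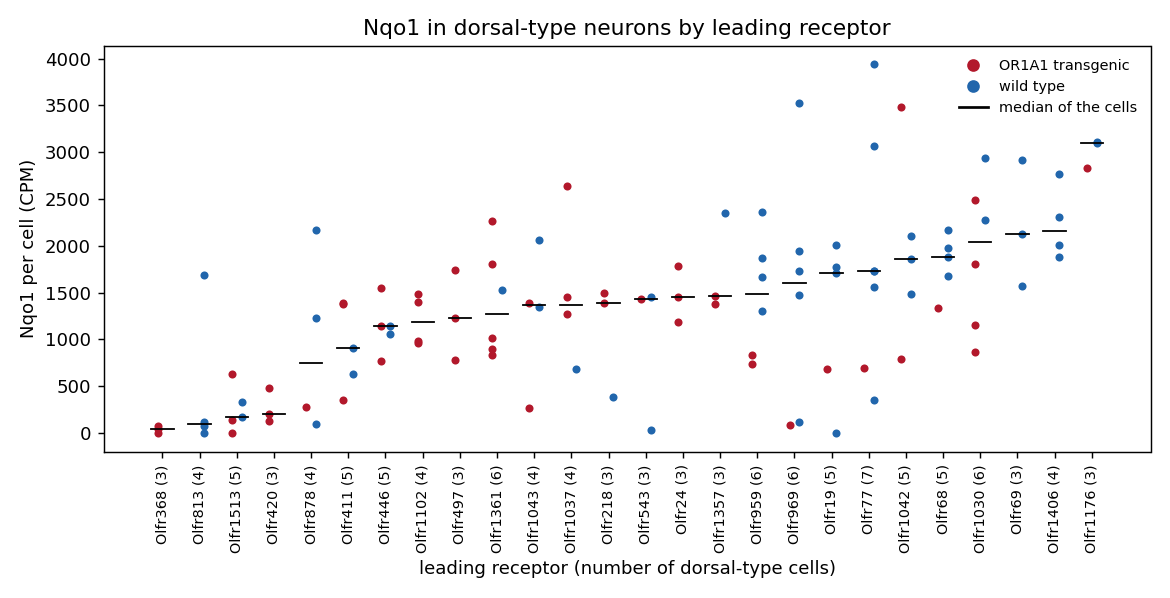
Nqo1 in each dorsal-type cell (vertical axis, CPM) by leading receptor (horizontal axis, number of cells in brackets, receptors with 3 or more cells ordered by their median). Red points are OR1A1 transgenic and blue points wild-type cells, and black lines are medians over the cells of both libraries, which run from 41.7 CPM for Olfr368 to 3103 CPM for Olfr1176.

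Set against ventral-type neurons, few genes stood apart. Genes entered with 20 CPM and 50 UMIs or more in 1 of the sums compared, and log2 ratios had 1 UMI added to each sum. Of 6282 genes, 21 (0.334%) were at least 2-fold higher and 55 (0.876%) at least 2-fold lower in dorsal-type cells of both libraries, 1.21% in all. Nqo1, Acsm4, Ncam2 and Nfix are among them by the rule.

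Papss2, which makes the sulfate donor PAPS, was at 86.3 CPM in dorsal-type and 2.39 CPM in ventral-type transgenic cells, and at 92.1 and 2.79 CPM in wild-type cells. Its log2 ratios were 5.06 (4.30 to 6.21) and 4.92 (4.12 to 6.14). It had a UMI in 76 of 129 transgenic dorsal-type cells, against 10 of 308 ventral-type cells. Hs3st5, a heparan sulfate sulfotransferase, had log2 ratios of 2.60 (2.04 to 3.23) and 3.77 (3.06 to 4.71). The sulfotransferase Sult1d1 was higher by less than 2-fold, at 1770 against 954 CPM in transgenic and 1599 against 932 CPM in wild-type cells. The acetyl-CoA synthetases Acss3 (log2 2.76 and 3.46) and Acss2 were likewise higher: Acss2 was at 209 against 68.2 CPM in transgenic and 246 against 89.6 CPM in wild-type cells. Class I-led cells held Acss2 at 238 CPM in the transgenic and 316 CPM in the wild-type library.

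Cartpt, a neuropeptide precursor, was at 2570 CPM in dorsal-type and 731 CPM in ventral-type transgenic cells, and at 3408 and 367 CPM in wild-type cells. Every dorsal-type cell held Cartpt, at 69.8 to 6908 CPM in transgenic and 428 to 14020 CPM in wild-type cells, whereas 47 of 308 and 124 of 261 ventral-type cells had none. Every class I-led cell held Cartpt too. Its per-cell medians were 2579 and 2346 CPM in class I-led and 2603 and 3118 CPM in dorsal-type cells (transgenic and wild type). Socs2, a suppressor of cytokine signalling, was at 199 against 33.2 CPM and 177 against 30.1 CPM (log2 2.58 and 2.55). Nob1, a ribosome assembly factor, had log2 ratios of 2.63 and 2.84. The adhesion molecule Kirrel3 had 1.60 and 1.48. The unnamed loci 4932412D23Rik (5.97 and 2.71) and 5033430I15Rik (1.63 and 1.52) also stood higher. Class I-led cells held Socs2 and Nob1 too, with per-cell medians of 175 and 19.8 CPM and of 58.5 and 82.5 CPM. In dorsal-type cells these medians were 135 and 126 CPM, and 76.5 and 91.0 CPM.

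Tex15 rested on 3 cells. Its level of 30.1 CPM in transgenic dorsal-type cells came to 98.1% from 1 cell, led by Olfr368 and with 53 Tex15 UMIs. In wild-type cells 121 of its 160 UMIs lay in 1 cell and 38 in another, both led by Olfr1513. These 3 cells also held 32 to 63 UMIs of Sox11, a gene of developing neurons, beside 16 to 78 UMIs of Omp. With cells of 5 or more Tex15 UMIs left out, its log2 ratio against ventral-type cells was −0.43 in the transgenic library.

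Among the genes lower in dorsal-type cells, Nfib was at 19.5 against 263 CPM in transgenic and 42.4 against 324 CPM in wild-type cells (log2 −3.72, −4.29 to −3.27, and −2.91, −3.35 to −2.55). Nfia, of the same family of transcription factors, had log2 ratios of −2.13 and −1.44. Nrp2, a receptor for semaphorins, was at 35.1 against 118 CPM and 49.0 against 197 CPM. Cd55, a complement regulator, was at 29.5 against 261 CPM and 81.0 against 285 CPM. The adhesion genes Mdga2 (log2 −4.64 and −5.62) and Pcdh11x (−2.83 and −1.07), the kinase Stk26 (−3.74 and −4.71), the monocarboxylate transporter Slc16a7 (−3.54 and −4.31) and the deiodinase Dio2 (−3.33 and −2.89) were lower too. Cidea, a lipid droplet protein, was at 16.7 against 174 CPM and 11.9 against 145 CPM. Ppp1r3b, Hectd2os and Nphs1 completed the 12 with the lowest ratios. Avp had the lowest ratio, but 90.6% of its transgenic and 47.2% of its wild-type ventral-type UMIs lay in 1 cell each.

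**Figure D4:**
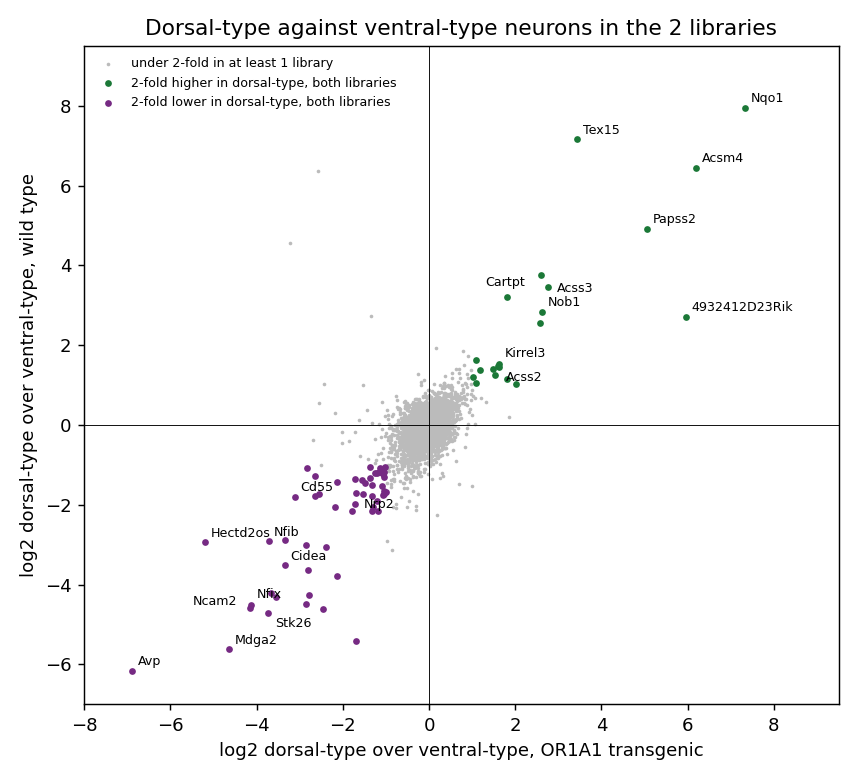
log2 ratio of dorsal-type over ventral-type cells in the OR1A1 transgenic library (horizontal axis) and in the wild-type library (vertical axis) for 6282 measured genes; green marks the 21 genes at least 2-fold higher and violet the 55 at least 2-fold lower in both libraries. Nqo1, Acsm4, Ncam2 and Nfix were used to choose the cells, and Tex15 and Avp rest on few cells.

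The wider lists of olfactory genes mostly did not differ by 2-fold between dorsal-type and ventral-type cells; over all genes 0.334% were higher and 0.876% lower in both libraries. Of zone genes other than those of the rule, 14 of 20 were measured: 0 were 2-fold higher and 4 lower (Nfia, Nfib, Nrp2 and Cd55), with list medians of −0.33 (transgenic) and −0.11 (wild type), against −0.03 and −0.01 over all genes. Robo2, a receptor for Slit proteins, was at 245 against 151 CPM and 365 against 148 CPM (log2 0.70 and 1.30), under 2-fold in the transgenic library. Of 13 measured axon guidance genes 0 were higher and 1 was lower (Nrp2). Efna5, an ephrin, was at 98.5 against 50.4 CPM and 273 against 160 CPM. Of 14 adhesion genes 1 was higher (Kirrel3) and 1 lower (Pcdh11x). None of 18 genes of olfactory transduction and none of 22 genes of receptor transport and choice was past 2-fold in both libraries. Slc12a2, the chloride importer NKCC1, came nearest in transduction, at 342 against 197 CPM and 716 against 404 CPM (log2 0.80 and 0.83), and Gnal, the olfactory G protein, had 0.30 and 0.16. Rtp2, a receptor chaperone, had −0.23 and −0.19. Of 17 activity-linked genes 2 were higher (Kirrel3 and Cartpt) and 1 lower (Cidea). Of 11 genes of xenobiotic metabolism outside the rule 1 was higher (Acss2), and the glutathione enzyme Gclc had 0.75 and 0.80. Among 15 stress and RNA quality genes none was past 2-fold.

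Few genes parted the dorsal-type class II cells from cells led by class I receptors. Of 4483 genes 5 (0.112%) were at least 2-fold higher and 2 (0.0446%) at least 2-fold lower in dorsal-type class II cells of both libraries, 0.156% in all. Only 41 and 48 class I-led cells stand behind this, so fewer genes reached the minimum. Bcl11b, a zinc finger transcription factor, was at 97.4 CPM in dorsal-type class II cells against 9.80 CPM in class I-led cells of the transgenic library, and at 93.6 against 21.1 CPM in the wild type. A Bcl11b UMI was found in 72 of 129 transgenic dorsal-type cells and in 5 of 41 class I-led cells. In ventral-type cells, also class II, Bcl11b was at 121 and 144 CPM. F8, coagulation factor VIII, was at 40.1 against 16.3 CPM and 77.3 against 22.97 CPM. Car2, a carbonic anhydrase, was at 76.3 against 35.9 CPM and 46.8 against 13.4 CPM. C78859 (log2 1.01 and 1.06) and Tex15, with its few cells, made up the 5. The class I-led sums (transgenic and wild type) were 10 and 12 UMIs for F8, 22 and 7 for Car2, and 9 and 10 for C78859. Their log2 intervals began at 0.33 and 0.88, 0.43 and 0.68, and 0.11 and 0.19, so each reaches under 2-fold. Of the wild-type class I-led Bcl11b UMIs 54.5% lay in 1 cell. The lower genes were Cd55, at 29.5 against 214 CPM and 81.0 against 478 CPM, and Tppp3, at 8.91 against 132 CPM and 32.0 against 142 CPM. Among the 12 with the lowest ratios the tetraspanin Cd9 had log2 ratios of −0.96 and −0.66, under 2-fold. Also on that side were Mcts1, Apba1, Olig1, Cdipt, Phactr1, Gm15706, Herpud1 and Bzw2, with log2 ratios between −1.27 and −0.56. On the higher side Yae1d1, Etv3, Mslnl, Kcna6, Erlin1, Eml1 and Gclc had a smaller ratio between 0.79 and 0.97. The intervals of Eml1 in the transgenic library and of Phactr1, Gm15706 and Bzw2 in the wild type include 0. In the lists, 1 of 10 zone genes (Cd55, lower) and 1 of 13 activity-linked genes (Bcl11b, higher) was past 2-fold, and none of 11 axon guidance, 12 adhesion, 17 transduction, 20 receptor transport and choice, 8 xenobiotic and 14 stress genes.

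Genes linked to neuronal activity were among those that differed between the libraries in dorsal-type neurons. Of 5443 genes, 75 (1.38%) were at least 2-fold higher and 104 (1.91%) at least 2-fold lower in transgenic than in wild-type dorsal-type cells. Of the higher genes 22 of 74 measured in ventral-type cells were past 2-fold there in the same direction, as were 38 of 99 of the lower genes, and 7 and 10 had the opposite sign. The share of all genes past 2-fold between the libraries in ventral-type cells is not given here, so these counts have no base to be read against. The median over all genes was −0.02. Of 15 measured activity-linked genes 5 were higher (S100a5, Pcp4l1, Kirrel2, Egr1 and Lrrc3b) and 3 lower (Kirrel3, Btg2 and Calb2). That is 8 of 15 in all, beside 3.29% of all genes, with a list median of 0.11. The list was chosen with earlier results of these data known, so its share is a description only.

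S100a5, a calcium-binding protein whose level is known to follow odor-evoked activity, was at 17319 CPM in transgenic and 6372 in wild-type dorsal-type cells (log2 1.44). Per cell it ran from 64.3 over a median of 11150 to 79626 CPM in transgenic cells, and from 0 over 331 to 77960 CPM in wild-type cells, of which 23 of 116 had none. The ranges overlap, and the wild-type median lies far lower. In ventral-type cells the medians were 17808 and 8175 CPM. Pcp4l1, a relative of the calmodulin-binding protein PCP4, was at 2209 and 540 CPM (log2 2.03, 1.92 to 2.15). It had no UMI in 9 of 129 transgenic and 72 of 116 wild-type cells. Pcp4l1 was also higher in transgenic ventral-type (log2 1.05) and class I-led cells (1.26). Kirrel2, an adhesion molecule that rises with activity, was at 725 and 201 CPM in dorsal-type cells (log2 1.85, 1.66 to 2.05). Its per-cell medians there were 646 and 93.7 CPM. In ventral-type and class I-led cells Kirrel2 had log2 ratios of 0.86 and 0.96. Lrrc3b, a leucine-rich repeat protein, was at 251 and 91.4 CPM in dorsal-type cells (log2 1.45). Of these cells 18 of 129 transgenic and 78 of 116 wild-type ones had none. Ventral-type and class I-led cells had Lrrc3b log2 ratios of 0.29 and 0.34. The immediate early gene Egr1 was at 31.2 and 11.1 CPM in dorsal-type cells (log2 1.42). Fos, another immediate early gene of the list, was lower in the transgenic cells, at 75.7 and 108 CPM.

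Calb2 (calretinin), a calcium-binding protein, went the other way, at 247 CPM in transgenic and 1213 in wild-type dorsal-type cells (log2 −2.29, −2.45 to −2.14). It had no UMI in 89 of 129 transgenic and 41 of 116 wild-type cells, with a highest cell of 4075 and 5018 CPM. In ventral-type cells it was at 220 and 320 CPM (log2 −0.54) and in class I-led cells at 232 and 320 CPM. Wild-type dorsal-type cells thus had the highest Calb2 of the 6 sums. Kirrel3, known to fall with activity where Kirrel2 rises, was at 54.0 and 114 CPM (log2 −1.08, −1.47 to −0.71), and in ventral-type cells at 17.8 and 41.0 CPM. Btg2, an antiproliferative gene, had −1.26, and 32.1% of its wild-type UMIs lay in 1 cell.

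**Figure D5:**
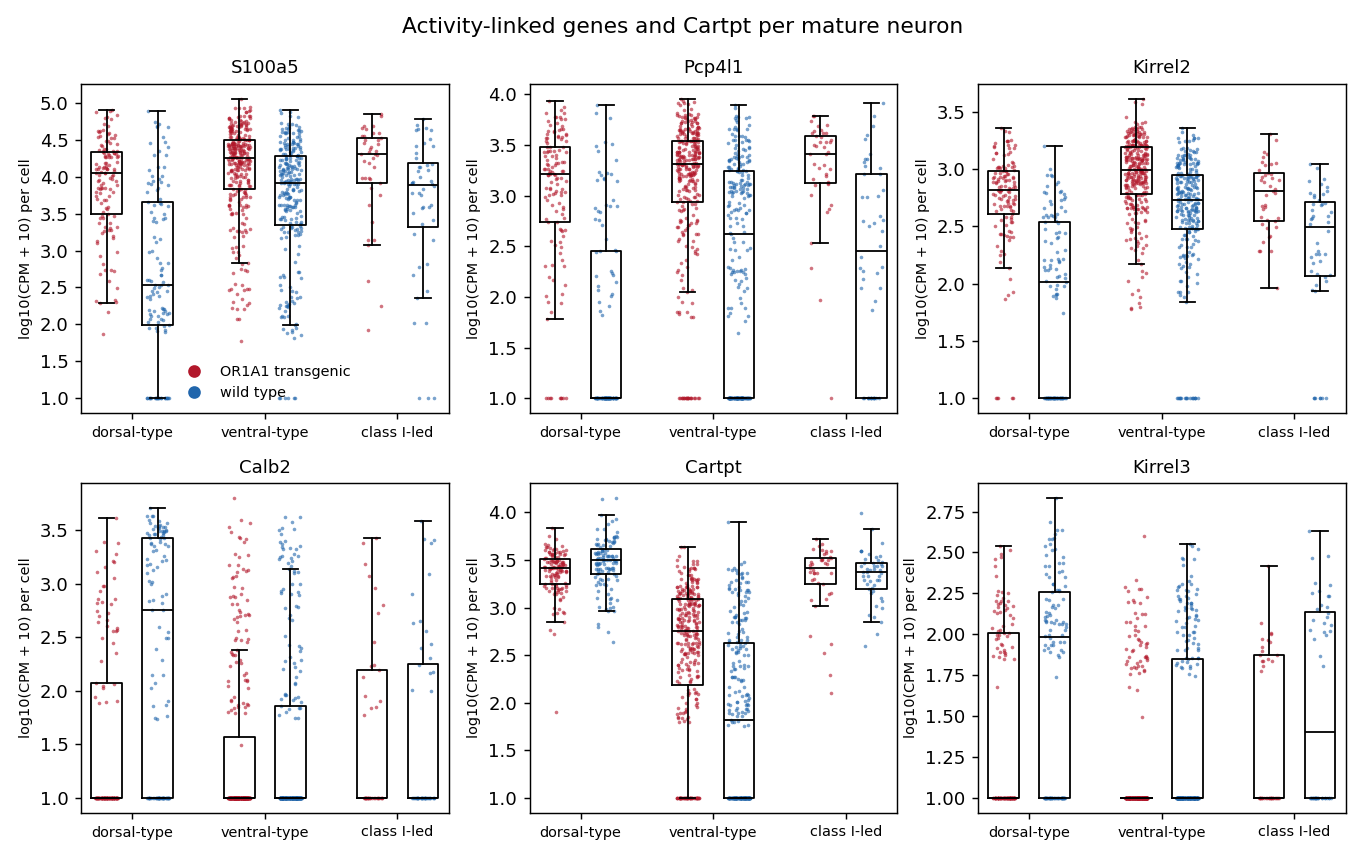
Level per cell, as log10(CPM + 10) on the vertical axes, of 6 genes in dorsal-type, ventral-type and class I-led mature neurons (horizontal axes), with OR1A1 transgenic cells (red) left of wild-type cells (blue). Points are cells; boxes give the quartiles and median and whiskers reach the last cell within 1.5 times the box height. In dorsal-type cells S100a5 has medians of 11150 and 331 CPM, and Calb2 is without a UMI in 89 of 129 and 41 of 116 cells.

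The libraries' cells were led by mostly different receptors, so the comparison was repeated for the 26 receptors found in both (46 transgenic and 55 wild-type cells). This was chosen after the values had been seen. Many of these receptors had 1 cell in a library, as Olfr1358 had in each, so an average is often the value of 1 cell. With 1 library per group the receptors are not replicates, and the tallies are a description. Averaged per receptor, S100a5 was higher in the transgenic cells for 19 of 26 receptors and lower for 7, with medians of 6922 and 1075 CPM. Kirrel2 was higher for 20 and lower for 5, with medians of 614 and 167 CPM. Pcp4l1 was higher for 17 and lower for 5, and Lrrc3b for 14 and 8. Calb2 was lower for 15, higher for 4 and equal for 7. Kirrel3 was lower for 19 and higher for 6. Summed over these cells the log2 ratios were 1.59 for Pcp4l1, 1.88 for Kirrel2, 1.24 for Lrrc3b, −1.51 for Calb2 and −1.43 for Kirrel3. Each of these 5 had the same direction as over all cells. A summed ratio is not given for S100a5. Its 7 receptors with lower transgenic levels include Olfr446 (27447 and 62522 CPM) and Olfr73 (19783 and 55899 CPM), so its sum may differ more from the tally.

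The counts of the other lists stand beside the same 1.38% higher and 1.91% lower of all genes. Of 13 measured adhesion genes 1 was higher (Kirrel2) and 2 lower (Kirrel3 and Pcdh10), and of 13 axon guidance genes 1 was higher (Nrp1, a semaphorin receptor, at 79.1 and 34.2 CPM) and 1 lower. The lower one was Efna5, at 98.5 and 273 CPM (log2 −1.46), which was also lower in ventral-type cells (−1.67). Epha5 and Epha7, ephrin receptors, had 0.72 and 1.00, both under 2-fold. Of 18 transduction genes 2 were lower. Slc12a2 was at 342 and 716 CPM (log2 −1.06, −1.21 to −0.92) and close to the same ratio in ventral-type (−1.03) and class I-led cells (−1.05); averaged per receptor it was lower for 21 of the 26. Gnas was at 7.79 and 43.1 CPM, but 50% of the wild-type UMIs lay in 1 cell. Of 20 genes of receptor transport and choice 1 was lower: Ehmt1, a histone methyltransferase (35.1 and 102 CPM, log2 −1.53), which had −1.30 in ventral-type cells. Lhx2 and Omp had 0.15 and −0.01.

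Of 13 zone genes outside the rule none was higher and 5 were lower in transgenic dorsal-type cells (Nfib, Tshz1, Cd36, Cd55 and Efna5), beside 1.38% higher and 1.91% lower of all genes, with a list median of −0.57 against −0.02 over all genes. Tshz1, a zinc finger protein, was at 65.7 and 284 CPM in dorsal-type cells and at 268 and 322 CPM in ventral-type cells. It had no UMI in 96 of 129 transgenic and 62 of 116 wild-type dorsal-type cells. Cd36, a fatty acid receptor of a subset of neurons, rested on 4 transgenic and 11 wild-type cells, and Cd55 on 9 and 21. Their levels in dorsal-type cells were thus set by few cells. Nfib was found in 16 transgenic and 23 wild-type cells, and its top cell gave 45.7% and 33.3% of the sum. The wild-type cells led by Olfr1513 and rich in Tex15 held 8 and 19 of the 57 wild-type Nfib UMIs. Its sums were 35 transgenic and 57 wild-type UMIs, and the transgenic cell rich in Tex15 held 0 of them. Nfib stayed past 2-fold with its highest cell left out of both groups, but this also took out the transgenic cell with 45.7% of that sum. A ratio with only the Tex15-rich cells left out is not given here, and the Nfib difference leans on few cells. Of 10 xenobiotic genes outside the rule 1 was higher (Cyp2a5, at 36.7 and 14.9 CPM). Free RNA held Cyp2a5 at 1323 and 667 CPM, and its part in the difference was not tested. None of 15 stress and RNA quality genes was past 2-fold, with Hspa8, a heat shock chaperone, nearest at 1.00, just under it.

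The largest differences between the libraries were mostly in genes outside these lists. In transgenic dorsal-type cells Gm35082, the pseudogene Rps18-ps6 and the cell-cycle gene Pttg1 had 0 UMIs, against 58.0, 56.5 and 40.1 CPM in wild-type cells. With 3 UMIs taken as the floor of all transgenic cells summed, these were at least 34.7-fold, 33.8-fold and 24.0-fold lower; the upper ends of their exact intervals, which add the counting error of the wild-type sums, were log2 −4.78, −4.75 and −4.24. Fam183b had 2 transgenic and 70 wild-type UMIs (log2 −4.98, −8.62 to −3.64). In ventral-type cells Gm35082 and Rps18-ps6 also had 0 transgenic UMIs, against 63.9 and 51.9 CPM in wild-type cells, and Pttg1 and Fam183b were at 0.651 and 1.52 CPM against 36.0 and 48.6 CPM. Reads of a ribosomal protein pseudogene cannot be told from those of its parent or of other copies. The odorant-binding and secreted proteins Obp2a, Obp2b and Lcn3 were at 22.8, 6.12 and 5.01 CPM in transgenic and at 219, 59.5 and 43.8 CPM in wild-type cells. Free RNA held Obp2a at 911 and 4095 CPM, and its part in the difference was not tested. The neutrophil genes S100a8 and S100a9 were at 2.78 and 2.23 CPM against 46.1 and 48.3 CPM, beside the free RNA of the neutrophil list given above. Stap1, Il1b and Wfdc2 were also among the 12 lowest, but 1 wild-type cell each held 88.3%, 95.8% and 87.3% of their wild-type UMIs.

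Among the genes higher in transgenic dorsal-type cells, the noncoding RNA Miat was at 32.3 CPM against 0 in wild-type cells, at least 14.5-fold higher if 3 UMIs are taken as the floor of all wild-type cells summed (lower end of the exact interval, log2 3.51). In ventral-type cells Miat was at 20.6 and 0.837 CPM. Kbtbd11 was at 32.8 and 2.23 CPM in dorsal-type cells (log2 3.49) and S100a3, a calcium-binding protein encoded beside S100a5, at 28.4 and 2.97 CPM (2.96). Their ventral-type log2 ratios were 1.22 and 1.70. Hopx, a homeodomain-only protein, was at 44.0 and 7.43 CPM in dorsal-type cells and at 39.1 and 39.1 CPM in ventral-type cells. Dlg2, a synaptic scaffold, was at 513 and 101 CPM in dorsal-type cells and at 899 and 181 CPM in ventral-type cells. Pcsk2, a prohormone convertase, was at 31.7 and 6.69 CPM, and Gpr162, an orphan receptor, at 70.7 and 16.3 CPM. Pop4 (log2 2.03), Gtf3c3 (2.01) and the histone gene H2ac6 (1.99) were also among the 12 highest. In ventral-type cells Pop4 had 2.45, Gtf3c3 0.36 and H2ac6 1.00. Apoe, a lipid carrier, was at 263 and 49.8 CPM, but 64.3% of its transgenic UMIs lay in 1 cell. With each gene's highest cell left out of both groups, Apoe had a log2 ratio of 1.13 and all 75 higher genes stayed past 2-fold, as did 98 of the 104 lower genes. Leaving out a cell of the lower group too can widen a ratio, as for Kbtbd11 (log2 3.49 to 3.78). These counts therefore do not show that the genes are free of dependence on single cells.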

How the data were processed

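Olfactory epithelium was profiled, in 1 OR1A1 transgenic and 1 wild-type animal, by 10x Genomics 3′ single-cell RNA-seq. The authors deposited raw UMI counts of every gene in every barcode, not filtered to cells (2037787 and 1577106 barcodes, 70572741 and 55701219 UMIs). The submitters' processing notes name Cell Ranger 6.1.1 and GRCm39 (mm39), while Cell Ranger 4 stands in the file headers. What sequence the transgene feature stands for is not stated in the sources used here.

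Cells and types were called by the rule given above, with no doublet caller and no clustering. Barcodes under 100 UMIs stood for free RNA. UMIs were summed over the cells of a type and scaled to CPM of all UMIs of the type, and log2 ratios had 1 UMI added. Receptor genes and the transgene were left out. Intervals are Clopper-Pearson for shares and conditional binomial for ratios, and cover counting error only. The method for ratios was tested on simulated data. The genes named are the 12 with the largest ratio in each direction per comparison (in both libraries, by the smaller ratio), the genes of the rule, up to 4 members of each of 8 lists with the largest ratios, and the receptors leading most cells; Egr1, Btg2, Lhx2 and Sox11 were added after their values were seen. Members, lists and marker genes were chosen with earlier results of these data known. Python 3.11.15, numpy 2.4.6, pandas 2.3.3, scipy 1.17.1 and matplotlib 3.10.9 were used. Alternatives were other limits for cells and zone, thinning to 5000 UMIs, other scalings, 5 UMIs added, no filter, and cells left out. Promoters were matched by symbol. Of the genes the naming rule and marker lists take in, some are not reported here.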

Additional observations from a re-analysis of the deposited data

Results flagged for a closer look

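Stap1, an adaptor of immune cells, had a log2 ratio of transgenic over wild-type cells of −4.69 in dorsal-type and 4.25 in ventral-type cells, opposite directions whose difference was not tested. In dorsal-type cells 88.3% of its wild-type UMIs lay in 1 cell. Il1b, an inflammatory cytokine, had −4.43 in dorsal-type and 3.35 in ventral-type cells, likewise untested, with 95.8% of its wild-type dorsal-type and 95.1% of its transgenic ventral-type UMIs in 1 cell each. Wfdc2, a secreted protease inhibitor, had −2.93 in dorsal-type and 2.97 in class I-led cells, also untested, with 87.3% of its wild-type dorsal-type and 98.1% of its transgenic class I-led UMIs in 1 cell each.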

How the results depend on the processing

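No paired analysis was possible because each group has 1 library. Of the shares and counts recomputed under every alternative, 154 stayed within their limits and 21 did not. With cells thinned to 5000 UMIs, where fewer genes reached the minimum (2491, 3854 and 1984 in the 3 gene comparisons), 32 genes were higher and 47 lower between libraries, 9 and 23 against ventral-type cells, and 0 and 0 against class I-led cells; exactly 1 receptor was then in 94.9% and the transgene in 22.2% of transgenic dorsal-type cells called from the thinned counts. With no filter on low values the counts were 846 and 2621 between libraries, 324 and 285 against ventral-type and 47 and 367 against class I-led cells, and the median ratio between libraries moved to −0.12. Over receptors found in both libraries they were 25 and 47 between libraries (2674 genes measured), and 2 and 6 against class I-led cells. The 5 genes higher than in class I-led cells became 3 with median-ratio scaling, 2 with 5 UMIs added and 8 without each gene's highest cell. Tex15 reversed in the transgenic library: against ventral-type cells to −1.34 without the 5% deepest cells, −1.25 without cells with a second receptor, −0.43 without cells of 5 or more Tex15 UMIs, −0.72 over shared receptors and −0.45 without its highest cell; against class I-led cells to −0.51 on thinned counts and −1.40, −1.65, −1.53, −0.93 and −0.55 under the same 5 settings, and to −1.33 in the wild type without the Tex15 cells. Stap1 between libraries became 0.63 without the 5% deepest cells. Settings on receptors shared by the libraries, highest cells, class I families and Tex15 were chosen after seeing the data. Sums under about 50 UMIs limit the genes that can be compared.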
